A study of Mus musculus with 8 samples.

Results

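The immediate early response genes were followed in colonic biopsies of bone marrow chimeric mice as a sign of stimulation or of tissue handling. They were taken by name from the table of normalized counts, as Fos, Fosb, Jun, Junb, Egr1, Egr2, Ier2, Nr4a1, Atf3 and Dusp1. These are 10 of the 26008 genes listed, and all 10 passed the filter on low values that 19127 genes passed. A normalized count is the number of reads of a gene after division by the library's size factor, so that libraries of unequal depth can be compared.

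RNA-seq was performed on 8 libraries, each from 1 mouse, with n = 4 per genotype. Male C57BL/6JRj mice aged 7 weeks were lethally irradiated and received bone marrow from male donors aged 9 to 11 weeks, either penk-/- or penk+/+. Colons were collected 18 weeks after the graft. The genotype is thus that of the donor marrow, and the recipients of both groups kept an intact proenkephalin gene outside the hematopoietic lineage. Penk itself, the gene disrupted in the donors, was read at 453 to 616 normalized counts in penk-/- chimeras and at 473 to 636 in penk+/+ chimeras, which overlapped, so these levels do not tell the genotypes apart. A biopsy holds epithelium, muscle, stroma and immune cells together, so fewer cells of a type and less RNA per cell cannot be told apart. The hour of collection and the delay before freezing are not given in the sources used here. The paper lists the colon RNA sequencing in the same set of chimeras as its gut transit assessment. Whether the 8 mice sequenced had gone through that assessment is not stated.

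Immediate early genes are transcribed within minutes of a stimulus from factors already present in the cell, without new protein synthesis. Growth factors, neuronal or muscular activity, cytokines and mechanical or dissociation stress all induce them, through MAP kinases acting on serum response factor and its partners and through cyclic AMP and calcium acting on CREB. Their transcripts decay quickly, which makes them a record of the moments before a tissue is frozen. Fos, Fosb, Jun and Junb code for subunits of the AP-1 transcription factor, Egr1 and Egr2 for zinc finger factors, Nr4a1 for an orphan nuclear receptor, Atf3 for a stress-induced factor of the ATF/CREB family, and Dusp1 for a phosphatase that switches MAP kinases off. Ier2 codes for a small nuclear protein.

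The bases in front of an annotated start of transcription were compared among the members. The RefSeq promoter table (GRCm38.p6) held 8 of the 10 members, and Egr1 and Ier2 were not among them. The 250 bases upstream of each start were searched on both strands, and each stretch matched 1 position of GRCm39 exactly. For Nr4a1, Atf3 and Dusp1 the start lies well inside the gene as annotated by GENCODE, whose outermost start is farther upstream. For Fos, Fosb and Egr2 it also lies inside the annotated gene, but close to the outermost start. The pentamer TGACG, the core of the cyclic AMP response element, was present in 6 of the 8 members, and in 17.9% of the 32536 distinct promoter stretches of the same length in the table. It was absent from Jun and Egr2 in this window. The full element TGACGTCA, which contains the pentamer, was found in Dusp1 alone among the 8, against 1.56% of all promoters. The CArG box bound by serum response factor and the AP-1 site TGANTCA were found in none of the 8, against 1.48% and 6.73% of all promoters, and GGGCGG was found in 7 of the 8, against 33.0%. TATAAA was found in Fos alone among the 8, against 12.3%. Such matches describe letters and not bound sites. Only the first listed start of each gene was used, and bases farther upstream were not searched, so a site may lie outside this window.

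The upstream stretches are shown for 5 members on which the results below turn, written 5′ to 3′ on the strand of the gene, with TGACG or its complement, TGACGTCA and TATAAA in capitals. Fos is at chr12:85520414-85520663 on the plus strand, Junb at chr8:85705378-85705627 on the minus strand, Nr4a1 at chr15:101164477-101164726 on the plus strand, Atf3 at chr1:190915531-190915780 on the minus strand and Dusp1 at chr17:26727447-26727696 on the minus strand, all on GRCm39.
Fos: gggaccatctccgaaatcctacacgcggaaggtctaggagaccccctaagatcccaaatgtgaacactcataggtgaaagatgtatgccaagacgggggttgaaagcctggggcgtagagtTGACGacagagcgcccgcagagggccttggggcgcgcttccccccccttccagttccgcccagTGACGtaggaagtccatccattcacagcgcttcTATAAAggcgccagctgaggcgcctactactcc
Junb: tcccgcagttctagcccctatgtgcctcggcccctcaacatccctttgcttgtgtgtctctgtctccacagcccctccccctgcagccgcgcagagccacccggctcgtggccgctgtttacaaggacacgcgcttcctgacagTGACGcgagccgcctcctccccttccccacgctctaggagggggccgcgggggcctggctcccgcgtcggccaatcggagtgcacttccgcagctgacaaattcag
Nr4a1: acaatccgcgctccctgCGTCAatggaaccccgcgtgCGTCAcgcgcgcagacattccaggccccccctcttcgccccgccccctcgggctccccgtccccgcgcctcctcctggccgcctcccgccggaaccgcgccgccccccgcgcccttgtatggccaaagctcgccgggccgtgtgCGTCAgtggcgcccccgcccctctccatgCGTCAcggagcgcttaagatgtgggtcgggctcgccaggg
Atf3: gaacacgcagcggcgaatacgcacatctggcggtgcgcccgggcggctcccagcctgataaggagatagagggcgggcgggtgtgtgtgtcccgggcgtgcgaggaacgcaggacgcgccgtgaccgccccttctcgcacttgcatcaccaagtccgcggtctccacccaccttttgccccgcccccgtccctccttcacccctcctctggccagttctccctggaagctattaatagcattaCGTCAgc
Dusp1: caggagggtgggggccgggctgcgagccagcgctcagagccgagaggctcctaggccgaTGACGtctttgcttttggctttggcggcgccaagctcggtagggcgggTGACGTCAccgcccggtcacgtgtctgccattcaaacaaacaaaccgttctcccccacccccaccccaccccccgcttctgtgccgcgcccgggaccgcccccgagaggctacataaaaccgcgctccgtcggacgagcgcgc
The Fos stretch carries TGACG from bases -129 and -66 and the TATA box from base -33, counted back from the start. Nr4a1 carries the pentamer 4 times, Dusp1 3 times and Junb and Atf3 1 time each. In Dusp1 the matches from bases -143 and -140 are both strands of its single TGACGTCA, which is a palindrome.

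If the smallest step between values is taken as 1 read, the libraries held 33.1 M to 50.7 M reads. This could not be checked for penk-/- 1, where the step was 1.01. Mitochondrial transcripts took 4.32% to 4.92% of the normalized counts. In penk-/- 3 and penk+/+ 4 the prostate transcript Pbsn was read at 105658 and 111024 normalized counts, against 0 to 13425 in the other 6 libraries. Both libraries were kept. Without them the log2 fold change of Nr4a1 was 0.38, that of Fos -0.13, that of Fosb 0.17, that of Egr2 -0.21 and that of Dusp1 0.11, beside the 0.68, -0.32, 0.33, -0.080 and 0.048 of all 8 libraries given below, and no member passed an adjusted p of 0.05 by limma either way.

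By level, corrected for the length of the main transcript, Fos was the most abundant member, with a mean of 5638 normalized counts per kb over the 8 libraries. Junb followed with 2362, Jun with 1460, Ier2 with 1266, Atf3 with 1060 and Dusp1 with 960.3 per kb. The scarcer members were Egr1 with 379, Nr4a1 with 326, Fosb with 149 and Egr2 with 10.0 per kb. All members were thus read in every mouse of both genotypes, including animals that had received penk+/+ marrow.

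No member differed between the genotypes after adjustment over all genes. Of the 10 members, 0 passed an adjusted p of 0.05 by limma, and 0.0% of all genes tested did so. The paper, with DESeq2 and its own limits, reported a few differentially expressed genes between these groups. The 0.0% belongs to limma on log2 values and does not mean that no gene differed, and tests on counts were not run here. At an unadjusted p below 0.05 there was 1 member, Junb, against 9.63% of all genes. This count depended on single libraries. It was 4 without penk-/- 2 (Fos, Junb, Egr1 and Ier2, against 7.74% of all genes), 3 without penk-/- 1 (Junb, Nr4a1 and Atf3, against 11.6%), 2 without penk+/+ 3 (Junb and Atf3, against 9.09%) and 2 without penk+/+ 4 (Jun and Junb, against 10.4%). The genotypes overlapped for each of the 10 members, while 5.63% of all genes had every library of one genotype on one side of the other. The mean log2 level was lower in penk-/- chimeras for 6 of the 10 members, against 48.9% of all genes, and 0 of the 10 differed by more than 1 on the log2 scale, against 0.622%. The median log2 fold change over the members was -0.13, beside 0.0051 over all genes tested. All fold changes are penk-/- minus penk+/+ on the scale of log2(normalized count + 1).

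**Figure D1:**
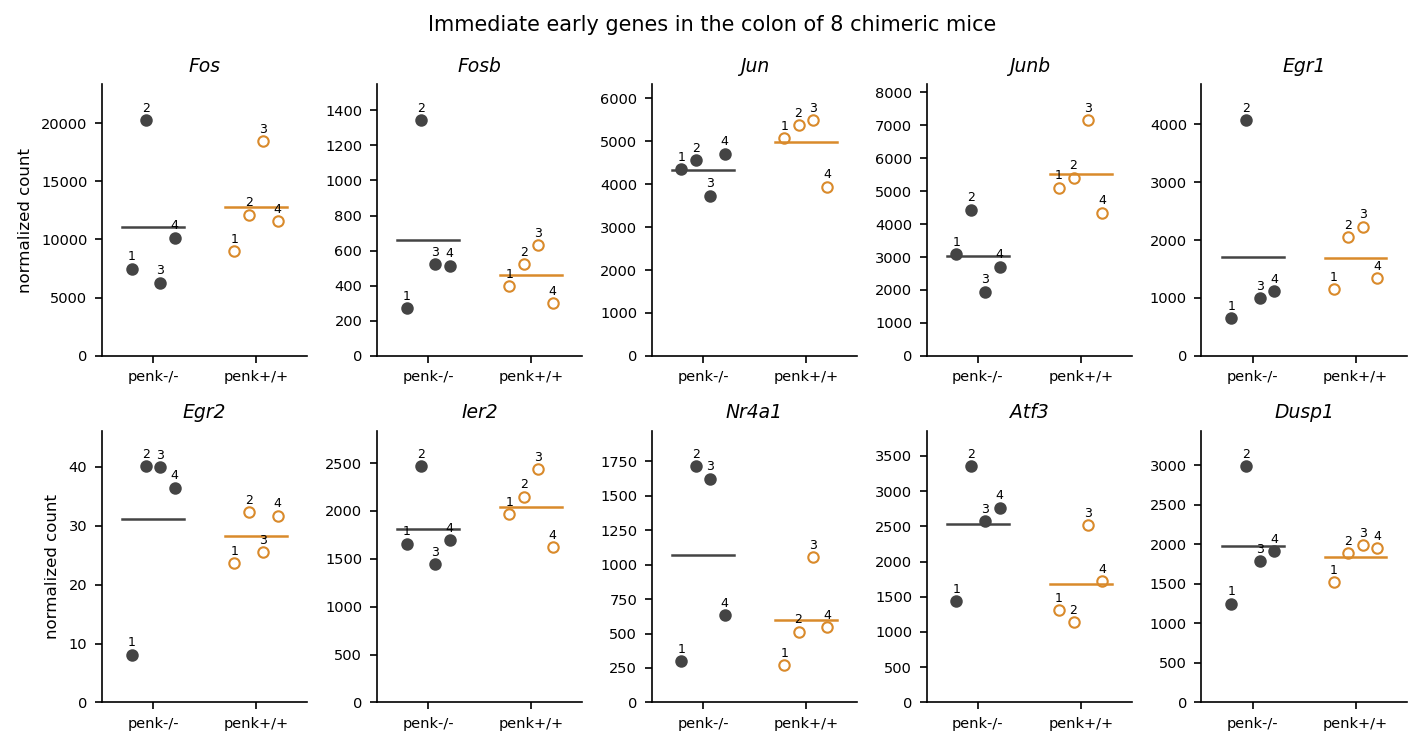
Normalized counts of the 10 immediate early genes in each mouse, on linear axes that start at 0 (filled, penk-/-; open, penk+/+; digits, replicate number; horizontal lines, group means, n = 4). The genotypes overlap for every gene, and Junb comes nearest to separation.

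Junb, the AP-1 subunit that often restrains Jun, was lower in 3 of the 4 penk-/- chimeras than in any penk+/+ chimera. Its normalized counts were 3079, 4436, 1949 and 2704 in penk-/- 1 to 4 and 5106, 5406, 7159.6 and 4349 in penk+/+ 1 to 4. The overlap came down to penk-/- 2, which stood just above penk+/+ 4. Means were 3042 ± 1042 and 5505 ± 1189 (SD, n = 4 each). The difference was -0.89 on the log2 scale (SE 0.23, 95% CI -1.42 to -0.37). The adjusted p by limma was 0.341 (unadjusted 0.00367), a smaller unadjusted p was given by 1.06% of the genes tested, and the exact permutation test over the 70 assignments of the libraries gave p = 0.0571, where 0.0286 is the smallest possible. Over the other settings tried the log2 fold change ranged from -1.10 to -0.70. The gene, which has 1 exon, lies at chr8:85701113-85705359 (GRCm39, minus strand) and shares bases with Prdx2 on the opposite strand. Prdx2 had a log2 fold change of -0.057 (adjusted p by limma 0.817), and the strand setting of the read counting is not given in the sources used here.

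Jun, the main partner of Fos proteins in AP-1, varied least. It was read at 4350.2, 4559, 3735 and 4710.1 normalized counts in penk-/- 1 to 4 and at 5078, 5384, 5499 and 3943 in penk+/+ 1 to 4. The penk+/+ chimeras 1 to 3 were above every penk-/- chimera and penk+/+ 4 was below all but 1 of them. Jun thus had a log2 fold change of -0.19 (SE 0.11, adjusted p by limma 0.642, exact permutation p = 0.2). It was -0.30 without penk+/+ 4 (adjusted p by limma 0.327) and -0.12 without penk-/- 3. Without penk+/+ 4 the genotypes did not overlap for Jun or Junb, as for 11.2% of all genes, and the same held without both penk-/- 3 and penk+/+ 4, as for 15.3% of all genes. Jun is a gene of 1 exon at chr4:94937271-94940459 on the minus strand, with the antisense transcript Junos on the other strand.

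Fos, the partner that gives AP-1 its fast response, spanned 3.23-fold among the 8 mice. Its normalized counts were 7506, 20269.6, 6281 and 10151 in penk-/- 1 to 4, against 9008, 12126, 18434 and 11577 in penk+/+ 1 to 4. The highest and the lowest mouse were both penk-/- chimeras. The log2 fold change was -0.32 (SE 0.35, adjusted p by limma 0.817, exact permutation p = 0.486). This value depended on single mice. It was -0.66 without penk-/- 2 (adjusted p by limma 0.576), and -0.18 without penk-/- 1, -0.096 without penk-/- 3 and -0.12 without penk+/+ 3. The gene has 4 exons and lies at chr12:85520658-85524047 on the plus strand.

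Fosb, whose product pairs with Jun proteins as Fos does, was read at 271, 1345, 522 and 515 normalized counts in penk-/- 1 to 4. In penk+/+ 1 to 4 it was read at 397, 522, 631 and 299. One penk-/- mouse stood far above the other 7, which lay between 271 and 631. The log2 fold change of 0.33 (SE 0.43, adjusted p by limma 0.851) turned to -0.091 without penk-/- 2. Fosb lies at chr7:19036621-19043976 on the minus strand.

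Egr1, the zinc finger factor induced through serum response factor, spanned 6.26-fold among the 8 mice. It was read at 650.3, 4073, 999 and 1118 normalized counts in penk-/- 1 to 4 and at 1155, 2046, 2231 and 1342 in penk+/+ 1 to 4. All penk-/- mice but penk-/- 2 were thus below every penk+/+ mouse, and penk-/- 2 was above them all. The means were nearly equal, at 1710.2 ± 1588 and 1694 ± 525 (SD, n = 4 each), while the log2 fold change was -0.31 (SE 0.49, adjusted p by limma 0.883). It was -0.86 without penk-/- 2 (adjusted p by limma 0.519) and 0.023 without penk-/- 1.

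Egr2, the related factor known from myelinating glia and lymphocytes, was scarce. Its normalized counts were 8.08, 40.1, 39.98 and 36.5 in penk-/- 1 to 4 and 23.6, 32.3, 25.6 and 31.7 in penk+/+ 1 to 4. All penk-/- mice but penk-/- 1 were above every penk+/+ mouse, and penk-/- 1 was below them all, the opposite of the arrangement of Egr1. At so low a level the gap between 36.5 in penk-/- 4 and 32.3 in penk+/+ 2 is small, and counting error was not separated from it. The log2 fold change was -0.080 (SE 0.47, adjusted p by limma 0.975), and 0.45 without penk-/- 1. Egr2 lies at chr10:67371305-67378018 on the plus strand.

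Ier2, after Jun, varied least among the members. It was read at 1658, 2466, 1444 and 1695 normalized counts in penk-/- 1 to 4 and at 1968, 2149.9, 2436 and 1619 in penk+/+ 1 to 4, with full overlap. This gave a log2 fold change of -0.18 (SE 0.17, adjusted p by limma 0.778), which was -0.34 without penk-/- 2 (adjusted p by limma 0.592), -0.29 without penk+/+ 4, -0.084 without penk-/- 3 and -0.095 without penk+/+ 3. The gene has 1 exon and lies at chr8:85387960-85389483 on the minus strand.

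Nr4a1, the orphan receptor also known as Nur77 and induced in T cells by antigen receptor signals, had the widest spread of the 10. Its normalized counts were 299, 1713, 1623 and 632 in penk-/- 1 to 4 and 273, 513, 1052 and 547 in penk+/+ 1 to 4. Within each genotype some mice were low and others high, and 2 penk-/- mice were above all penk+/+ mice. The log2 fold change was 0.68 (SE 0.58, 95% CI -0.62 to 1.97, adjusted p by limma 0.752, exact permutation p = 0.371). It rested on single mice, and was 1.18 without penk-/- 1, 0.34 without penk-/- 2, 0.37 without penk-/- 3 and 0.35 without penk+/+ 1. The gene lies at chr15:101151980-101172681 on the plus strand.

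Atf3, which is induced by cell stress and often acts as a repressor, was higher in 3 of the 4 penk-/- chimeras than in any penk+/+ chimera. It was read at 1442, 3351, 2569 and 2764 normalized counts in penk-/- 1 to 4 and at 1311, 1143, 2518 and 1726 in penk+/+ 1 to 4. The exception was penk-/- 1, which lay among the penk+/+ values, and without it the genotypes did not overlap, as for 12% of all genes. The log2 fold change was 0.60 (SE 0.29, 95% CI -0.06 to 1.26, adjusted p by limma 0.555, unadjusted 0.0696, exact permutation p = 0.143). Without penk-/- 1 it was 0.85 (adjusted p by limma 0.301). Atf3 lies at chr1:190902493-190950241 on the minus strand.

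Dusp1, which dephosphorylates the MAP kinases upstream of the other members, was read at 1250.1, 2984, 1787 and 1914 normalized counts in penk-/- 1 to 4. It was read at 1525, 1890.3, 1985 and 1953 in penk+/+ 1 to 4. The penk+/+ mice were close to each other and the penk-/- mice lay on either side. The genotypes differed by a log2 fold change of 0.048 (SE 0.22, adjusted p by limma 0.969), and its sign turned when penk-/- 2 was left out (-0.17). Dusp1 lies at chr17:26724564-26781102 on the minus strand, where bases of Ergic1 on the opposite strand overlap the annotated gene.

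**Figure D2:**
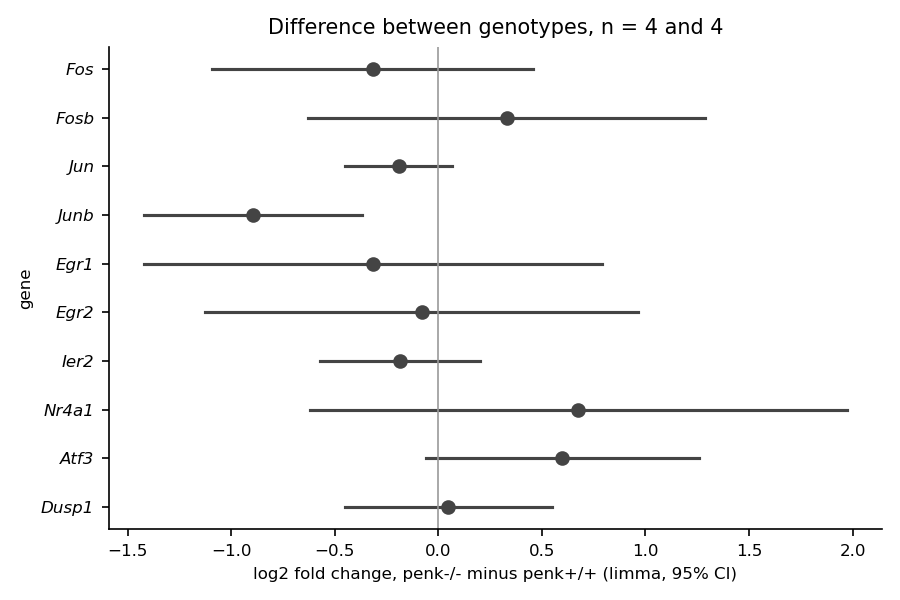
Log2 fold change of each member (points) with its 95% confidence interval from limma (lines), penk-/- minus penk+/+, n = 4 and 4. Only the interval of Junb, -1.42 to -0.37, leaves out 0, and this interval is not adjusted for the number of genes tested.

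The spread between mice of one genotype was larger for the members than for most genes. The pooled SD within genotype of the log2 values had a median of 0.560 over the members and of 0.197 over all genes tested. Nr4a1 varied more than 97.9% of the genes tested, Egr1 more than 97.2%, Egr2 more than 96.3%, Fosb more than 96.1% and Fos more than 93.7%. The percentages were 90.0% for Atf3, 82.6% for Junb, 80.4% for Dusp1, 68.1% for Ier2 and 47.9% for Jun. Mice of the same genotype thus differed by up to 6.26-fold for Egr1 and by 1.26-fold for Jun among penk-/- chimeras, and by 1.93-fold and 1.39-fold among penk+/+ chimeras.

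The libraries were then ranked, first gene by gene and then by the mean over the members of the log2 level centred on each gene's mean. One penk-/- mouse was the highest in 8 of the 10 members, namely penk-/- 2, with a mean of 0.76. It was followed by penk+/+ 3 with 0.41, which was the highest for Jun and Junb and the first or second in 7 members. The next 4 libraries were close to each other, with 0.06 in penk+/+ 2, -0.03 in penk-/- 4, -0.09 in penk-/- 3 and -0.13 in penk+/+ 4. The lowest were penk+/+ 1 with -0.28 and penk-/- 1 with -0.71, the latter being the lowest for Fosb, Egr1, Egr2 and Dusp1. With each gene scaled to unit SD, penk-/- 3 was of rank 7, with -0.40 against -0.33 in penk+/+ 1, and by mean rank both were at 5.6. The first and last libraries were the same under both weightings. Both ends of the order were therefore penk-/- chimeras. The mean of this score was -0.02 in penk-/- and 0.02 in penk+/+ chimeras, with SDs of 0.60 and 0.30 (n = 4 each).

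**Figure D3:**
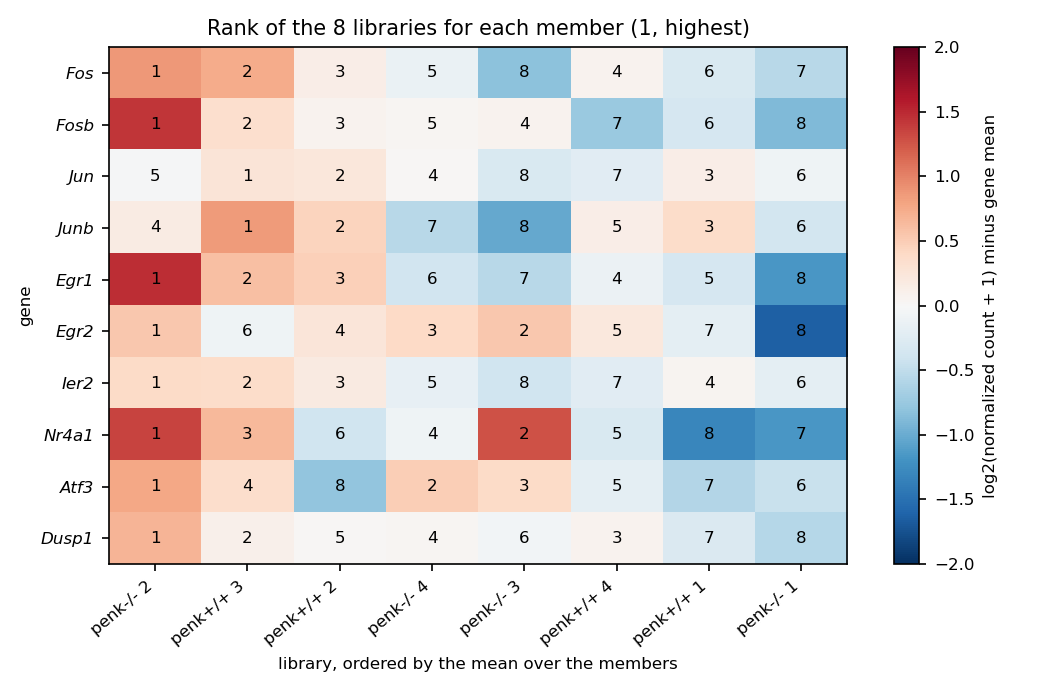
Rank of each library (digits, 1 for the highest of 8) for each member and log2(normalized count + 1) minus the gene's mean (colour). The libraries are ordered from left to right by their mean over the members, from 0.76 in penk-/- 2 to -0.71 in penk-/- 1, and penk-/- 3 changes from the lowest rank for Fos, Jun, Junb and Ier2 to the second rank for Egr2 and Nr4a1.

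The order was not the same for all members, and penk-/- 3 showed this best. It had the lowest level of the 8 for Fos, Jun, Junb and Ier2 and the second highest for Egr2 and Nr4a1. Across the 8 libraries the 45 pairs of members had Pearson r of -0.27 to 0.90 on the log2 scale, with a median of 0.58 and 39 of the 45 above 0. These coefficients describe the same 8 libraries throughout. The lowest was that of Junb with Atf3, and Nr4a1 with Atf3 had r = 0.83.

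Fos was compared with each other member to learn whether they ranked the mice alike, with exact permutation tests over all pairings and adjustment over the 9 relations. Egr1 followed Fos with r = 0.90 (exact permutation, p = 0.00164, adjusted 0.0147) and rho = 0.95 (exact permutation, p = 0.00114, adjusted 0.0103). Without penk-/- 2 and penk-/- 3, the mice farthest from the Fos median, r was 0.90, and it was 0.90 for the deviations from the genotype means. Ier2 followed Fos with r = 0.88 (exact permutation, p = 0.00446, adjusted 0.0201) and rho = 0.83 (exact permutation, p = 0.0154, adjusted 0.0461), with r = 0.74 without the same 2 mice and 0.87 within genotypes. For Dusp1, r was 0.76 (exact permutation, p = 0.0237, adjusted 0.0712) and rho 0.86 (exact permutation, p = 0.0107, adjusted 0.0461). The remaining 6 members had r from 0.32 for Egr2 to 0.74 for Junb, and none of them passed the adjusted threshold by either coefficient.

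Ratios of members within a library leave out any shift shared by both genes. All 45 ratios were computed after the levels had been seen, and they are given as a description, since they share members. The genotypes did not overlap for 4 of the 45 (8.89%), while they did not overlap for 5.46% of the ratios of all pairs of genes tested. Junb was in 3 of the 4, and Atf3 in 2. The log2 ratio of Junb to Ier2 was 0.89, 0.85, 0.43 and 0.67 in penk-/- 1 to 4 and 1.38, 1.33, 1.56 and 1.43 in penk+/+ 1 to 4. Its means were 0.71 ± 0.21 and 1.42 ± 0.10 (SD, n = 4 each), and the mice of each genotype lay close together. The log2 ratio of Junb to Atf3 was 1.09, 0.40, -0.40 and -0.03 in penk-/- 1 to 4 and 1.96, 2.24, 1.51 and 1.33 in penk+/+ 1 to 4. The other separated ratios were Jun to Junb, with means of 0.57 ± 0.40 in penk-/- and -0.13 ± 0.18 in penk+/+ chimeras, and Fos to Atf3, with 2.04 ± 0.58 and 2.95 ± 0.31. Both were separated narrowly. The nearest mice were penk-/- 2 at 0.039 and penk+/+ 2 at -0.0058 for Jun to Junb. For Fos to Atf3 they were penk-/- 2 at 2.596 and penk+/+ 4 at 2.745. Of the 9 ratios with Junb, 3 separated the genotypes, those with Jun, Ier2 and Atf3, and the rest overlapped. With quantile normalization the ratio of Fos to Atf3 overlapped and that of Fosb to Junb did not. The count was 15 of 45 without penk-/- 1 (against 11.5% of all pairs of genes), 8 without penk-/- 2 (8.34%) and 8 without penk+/+ 3 (9.10%).

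**Figure D4:**
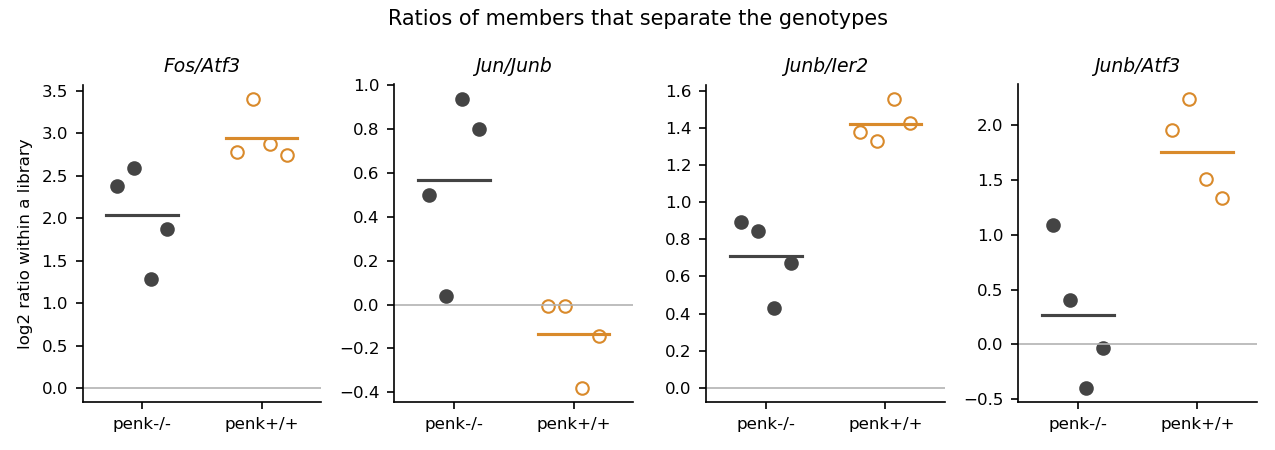
Log2 ratio of 2 members within each library for the 4 ratios of the 45 whose genotypes do not overlap (filled, penk-/-; open, penk+/+; horizontal lines, group means, n = 4; grey line, equal normalized counts). The ratio of Junb to Ier2 lies between 0.43 and 0.89 in penk-/- and between 1.33 and 1.56 in penk+/+ chimeras.

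The ends of the order of the libraries were also the ends for smooth muscle markers. Penk-/- 2 and penk+/+ 3, the highest for the members, were also the highest for 8 smooth muscle markers such as Myh11 and Acta2, with centred log2 means of 0.32 and 0.33, and penk-/- 1 and penk+/+ 1, the lowest, had -0.41 and -0.27. The exception was penk-/- 3, the third highest for smooth muscle at 0.18 and of rank 5 for the members. The summed level of this list was 150093 to 255827 normalized counts in penk-/- and 158344 to 247476 in penk+/+ chimeras. The 6 macrophage markers were below their mean in 3 libraries, at -0.22 in penk-/- 1, -0.63 in penk+/+ 1 and -0.23 in penk+/+ 4, while their highest value was 0.31 in penk-/- 3. Their summed level was 6023 to 8858 and 4543 to 8251. The 9 epithelial markers went the other way, with 0.14 and 0.22 in penk-/- 1 and penk+/+ 1 and -0.10 and -0.09 in penk-/- 2 and penk+/+ 3, and their lowest value was -0.32 in penk-/- 3. Their summed level was 468146 to 634977 and 578269 to 687130. No gene of these 3 lists was at 0 in any library, and 0 of their 23 genes had an unadjusted p by limma below 0.05 between genotypes, against 9.63% of all genes. The lists still leaned. Lower in penk-/- chimeras were 8 of the 9 epithelial, 3 of the 8 smooth muscle and 0 of the 6 macrophage markers, against 48.9% of all genes. Their median log2 fold changes were -0.15, 0.07 and 0.27. The low end was not particular to smooth muscle. Fibroblast markers were lowest in penk+/+ 1 (-0.51) and penk-/- 1 (-0.29), and endothelial markers likewise, at -0.48 and -0.29. Enteric glia markers were lowest in penk-/- 1 (-0.34) and penk+/+ 1 (-0.14). The highest library was penk-/- 3 for fibroblast and endothelial markers (0.26 and 0.35) and penk-/- 2 for glia markers (0.19). The part of the tissue layers in the ranking was not tested. With the difference of the smooth muscle and epithelial scores as a covariate, an alternative added after the data were seen, the log2 fold change of Junb was -0.93 (adjusted p by limma 0.223) and that of Atf3 was 0.44 (adjusted p by limma 0.431). Those of Jun and Ier2 were -0.20 and -0.23. The other members moved by over 0.1 on the log2 scale, to 0.28 for Nr4a1 (SE 0.16), 0.10 for Fosb, -0.44 for Fos, -0.55 for Egr1, -0.30 for Egr2 and -0.062 for Dusp1, and none of the 10 passed an adjusted p of 0.05.

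**Figure D5:**
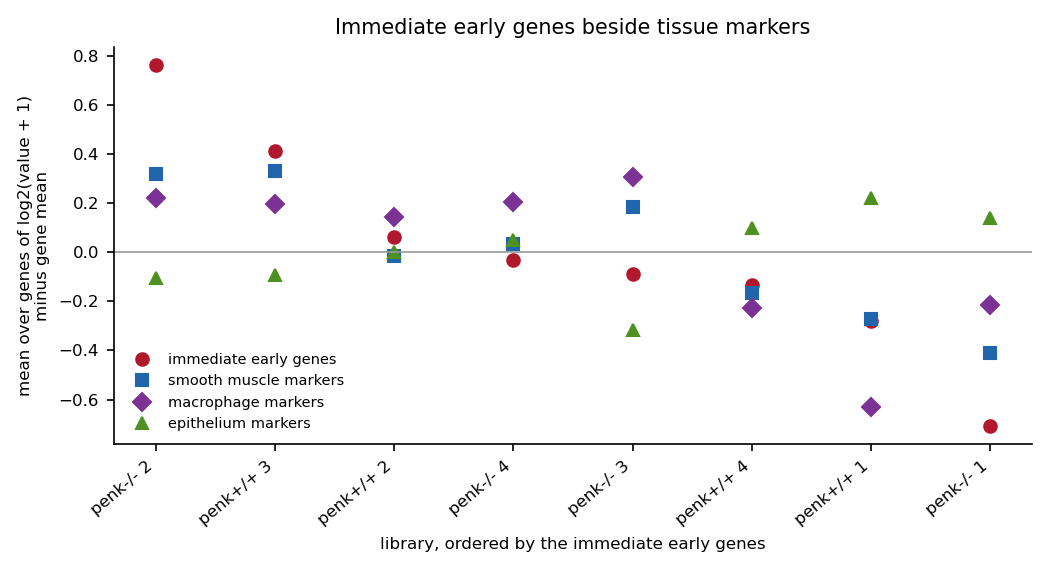
Mean over genes of log2(normalized count + 1) minus the gene's mean, for the 10 immediate early genes, 8 smooth muscle, 6 macrophage and 9 epithelial markers in each library. The libraries are ordered by the immediate early genes, and smooth muscle markers are highest in the first 2 (0.32 and 0.33) and lowest in the last 2 (-0.27 and -0.41).

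The 12 genes outside the members whose levels most resembled the mean of the members over the 8 libraries had r of 0.94 to 0.97. They were Popdc2, AI467606, Megf6, Adgrg3, Tox, Gm49240, Heyl, Slc10a7, Pamr1, Gm7420, Gins2 and Rbpms, in this order. Popdc2 was read at 264, 546, 368 and 409.9 normalized counts in penk-/- 1 to 4 and at 312, 383, 426 and 355 in penk+/+ 1 to 4. These genes were chosen for the likeness, which is given as a description.

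The wider program was examined in lists of related genes. Other AP-1 and partner subunits had 11 of 12 genes tested, 6 with a positive and 5 with a negative fold change, with 2 higher and 0 lower at an unadjusted p below 0.05 by limma. These were Batf, an AP-1 factor of lymphocytes, with a log2 fold change of 1.03 at 5.14 to 20.99 normalized counts, and Atf4, the factor of the integrated stress response, with 0.24. The other immediate early transcription factors had 17 genes tested, 12 higher and 5 lower, with 2 higher (Myc, 0.34, and Nr4a2, 0.39) and 1 lower (Ier5, -0.33) at an unadjusted p below 0.05. Median log2 fold changes of both lists were 0.05 and 0.12. Beside these and the following counts, 9.63% of all genes had an unadjusted p below 0.05 and 48.9% were lower.

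Negative regulators of the program, among them MAP kinase phosphatases, Sprouty proteins and RNA decay factors, had 23 genes tested, 11 higher and 12 lower. At an unadjusted p below 0.05 by limma, 2 were higher and 6 lower, against 9.63% of all genes in both directions. The 4 smallest p were those of Nfkbia, the inhibitor of NF-kB (log2 fold change -0.65), Btg1 (-0.33), Dusp8 (0.33) and Ppp1r15a (-0.30). The median over the list was -0.05. Secreted and cytoplasmic products of the program had 24 genes tested, 18 higher and 6 lower, with 7 higher and 1 lower at an unadjusted p below 0.05, against the same 9.63%, and a median of 0.30. Trib1, a pseudokinase, had a log2 fold change of 0.50, the EGF receptor ligand Areg 0.54, the kinase Plk2 0.43 and the kinase Pim1 -0.46. Areg was read at 1052 to 1341 normalized counts in penk-/- and at 573 to 990.4 in penk+/+ chimeras.

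The kinases and factors that act upstream of the members had 28 genes tested, 13 higher and 15 lower, with 1 higher and 0 lower at an unadjusted p below 0.05 by limma, and a median log2 fold change of -0.02. The one gene was Map2k7, a kinase that activates JNK, with 0.13. None of the genes in any list passed an adjusted p of 0.05 by limma, as was true of all genes in this fit.

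Other programs that move with handling or time of collection were read in the same way, again beside 9.63% of all genes at an unadjusted p below 0.05 and 48.9% lower. Of 12 heat shock genes, 9 were higher and 3 lower, with 0 at an unadjusted p below 0.05 by limma, and the 2 smallest p were those of Bag3 (log2 fold change 0.13) and Dnaja1 (0.15). Of 12 hypoxia genes, 2 were higher and 10 lower, with 0 higher and 4 lower at an unadjusted p below 0.05, namely Vegfa (-0.20), Pdk1 (-0.21), Slc2a1 (-0.25) and Egln3 (-0.46). Of 12 clock genes, 3 were higher and 9 lower, with 1 higher (Cry1, 0.51) and 3 lower (Nr1d1, -1.64, Nr1d2, -0.82, and Dbp, -1.37). Medians were 0.07, -0.19 and -0.12. Nr1d1, which codes for the clock repressor REV-ERB alpha, was read at 848 to 1916 normalized counts in penk-/- and at 3547 to 4311 in penk+/+ chimeras (adjusted p by limma 0.296), without overlap. The part of the hour of collection in the values of the members was not tested, since no hour is given for the mice.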

How the data were processed

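Poly-A selected, stranded, paired-end RNA-seq libraries were made from colon of chimeric mice, 4 with penk-/- and 4 with penk+/+ marrow. Reads were aligned with STAR 2.7.8a on GRCm39 (Ensembl release 107), and the values deposited by the authors are a signal per gene, namely counts scaled by the size factors of DESeq2 1.30.0. They are neither raw counts nor log values. Identifiers were matched to GENCODE M39 (25776 of 26008). Groups and replicate numbers follow the sample labels, and all 8 libraries were used. No library was a repeat of another (chi-square of 10.2 or more per degree of freedom for each pair).

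The test of genotype was limma 3.58.1 (R 4.3.3, lmFit, eBayes with trend) on log2(value + 1) for the 19127 genes with a mean of at least 10, two-sided, with Benjamini-Hochberg adjustment over all of them. The fit was tested on simulated data. Single values and correlations were tested by exact permutation in Python 3.11.15 (scipy 1.17.1). The spread between mice was not separated from counting error, which weighs most on scarce genes. The members and lists were chosen with earlier results of these data known. Named outside the members were, from each list, at most 4 genes with an unadjusted p below 0.05 by smallest p, otherwise the 2 with the smallest p, and the 12 genes most alike. The alternatives were limma without trend, quantile normalization, another pseudocount (0.1 or 8), another minimum mean (none or 50), a replicate block and the omission of libraries. The layer covariate and the ratios were added after the data were seen.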

Additional observations from a re-analysis of the deposited data

Results flagged for a closer look

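In 2 of 22 groups of 4 libraries examined, 1 library stood apart from the other 3, where chance gives about 1.1 for normally distributed values. The gaps of the members were measured on normalized counts and not on the log2 scale, where a high value stands out less. The 22 groups rest on the same mice and are not independent. The gap to the nearest library was 0.8633 of the whole range for Egr1 in penk-/- chimeras, where penk-/- 2 was the highest, and 0.8873 for Egr2 in penk-/- chimeras, where penk-/- 1 was the lowest.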

How the results depend on the processing

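No member passed an adjusted p of 0.05 by limma under any of the 17 other settings, and the sign of Fos, Jun, Junb, Ier2, Nr4a1 and Atf3 was the same in all of them. The number of all genes past that threshold, 0 as reported with 1842 at an unadjusted p below 0.05, was 1 with quantile normalization, 1 with the replicate block and 1 with the layer covariate, and 0 to 6 when single libraries were left out, the 6 coming without penk-/- 1. Members whose genotypes do not overlap numbered 0 to 2 when single libraries were left out (Egr2 and Atf3 without penk-/- 1, beside 12% of all genes, Junb and Egr1 without penk-/- 2, beside 8.8%, Jun and Junb without penk+/+ 4, beside 11.2%), and 2 without penk-/- 3 and penk+/+ 4, beside 15.3%. When single libraries were left out, the log2 fold change ranged from -0.091 (without penk-/- 2) to 0.68 for Fosb, from -0.86 to 0.023 (without penk-/- 1) for Egr1, from -0.27 to 0.45 (without penk-/- 1) for Egr2 and from -0.17 (without penk-/- 2) to 0.25 for Dusp1, so that the sign of these 4 turned. Dusp1 was also at -0.039 without penk+/+ 1 and at -0.062 with the layer covariate. The correlation of Fos with Egr2 was -0.11 without penk-/- 1 and 0.62 without penk-/- 3. That of Fos with Nr4a1 ranged from 0.09 to 0.94. It was 0.94 without penk-/- 3 alone, 0.39 without penk+/+ 4 alone and 0.94 without both. The cause of these shifts was not tested. The median over the members ranged from -0.24 to 0.13.

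The replicate block gave 2938 of 19127 genes at an unadjusted p below 0.05 by limma and 3 members, Junb, Nr4a1 and Atf3. The numbers name different mice. The deviations of same-numbered mice had correlations of 0.15, -0.04, -0.32 and -0.16, beside 0.56 for penk-/- 3 with penk+/+ 4. These correlations cannot decide whether same-numbered mice were handled together, and the sources used here do not state it. Tests on counts were planned but not run, because whole reads could not be recovered with certainty for penk-/- 1. Egr2 was not tested at a mean of at least 50. With 4 mice a genotype and the spread of the members, differences of the size seen for Nr4a1 could not be told from 0 in the fit of all 8 libraries without a block.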
